A study of Chrysodeixis includens with 4 samples.

Results

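In larvae of the soybean looper Chrysodeixis includens, 118 of 19878 assembled loci were long, abundant in the body and listed at under 1/32 of that level in the head. They were selected on their length and on the values of both tissues, with a locus of 600 bases or more, a body level of 300 FPKM or more and a head level under the body level divided by 32, with loci at 0 in head included. FPKM counts sequenced fragments of a locus relative to its length (less a fixed offset in the head values) and to the library's depth. The contrast between head and body that these rules use is therefore given below as a description. The members are 31.6% of the 373 loci that met the limits on length and body level, and the other 255 of those loci serve for comparison. The name nearly absent holds as a ratio. In head, 6 members were listed at 0 and 59, with those 6 included, were under 1 FPKM, while 15 were at 10 FPKM or more and the highest reached 1499 FPKM.

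The study sequenced RNA of third-instar larvae of a laboratory colony ordered from Benzon Research, which came from the University of Georgia and had been kept for over 100 generations. Larvae were cut into head and body, and each tissue gave 2 libraries from pools of 5 larvae. Both tissues share the colony, the instar and the genotype, recorded as laboratory, and no treatment is recorded. Reads were placed on transcripts assembled without a genome, so a locus is a stretch of a Trinity contig, and loci whose contigs share a name up to the last field belong to 1 Trinity gene, a group of variants made by the assembler.

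The head of a caterpillar holds the brain, the chewing mouthparts with their muscles, the simple eyes and a hardened cuticle. The body holds the midgut, which makes the digestive enzymes and the peritrophic matrix, and the fat body, which makes storage proteins and many proteins of the blood. It also holds the Malpighian tubules, the body wall muscle and most of the epidermis. Blood, with its cells, bathes both tissues, and glands and the foregut can cross the cut between them. Transcripts of midgut and fat body are known to be among the most abundant of a feeding larva. No locus of the table carries a gene name, so neither the tissues nor the members could be checked against markers, and no function is given to any member. Which column is head and which is body rests on the order of the column headers, and every direction below rests on it. In bulk tissue, fewer cells of a type and less RNA per cell cannot be told apart.

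The table gives 1 value per tissue, with no value per library and hence no spread between replicates. Low head values are sums of whole fragments from 2 libraries of different depth, and these could be recovered (described below). The deeper is called head library A and the other head library B. Neither could be matched to a replicate number. A was 1.35 times as deep as B, so that equal levels would place 57.5% of a locus's fragments in A. Of the 118 members, 96 had a resolved split (6 of them at 0), and all 96 were under 1/32 of the body level in each head library alone. Among the 22 without a resolved split, 13 had a body level over 64 times the head level, which places both libraries under 1/32, and for the other 9 this could not be told. The fragments of the 90 resolved members above 0 lay apart from the share of 57.5%, as reported below. How the fragments of the 22 were split is unknown.

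Members ranged from 302 to 122861 FPKM in body, with a median of 610 and quartiles of 399 and 1118. Of these, 32 were at 1000 FPKM or more and 47 were under 500. They made up 5 of the 10 highest and 32 of the 100 highest long loci in body. Together they held 31.6% of the summed body FPKM of long loci and 0.575% of the summed head FPKM of the same loci. Over loci of every length, their share of the body sum was 4.37%. That sum includes short loci, whose FPKM is not comparable with that of long ones. The members' own body sum was uneven, since the highest member held 45.9% of it and the 5 highest held 62.1%.

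In head, the 112 members above 0 ranged from 0.102 to 1499 FPKM, with a median of 1.07 and quartiles of 0.460 and 3.53. Their body level was 32.1 to 6171 times the head level, with a median of 746. On the scale of log2((body FPKM + 1)/(head FPKM + 1)), the median difference of the 118 members was 8.25, with a range of 4.99 to 10.02. The same median was 1.55 for the other 255 long abundant loci and -0.06 for all loci.

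**Figure D1:**
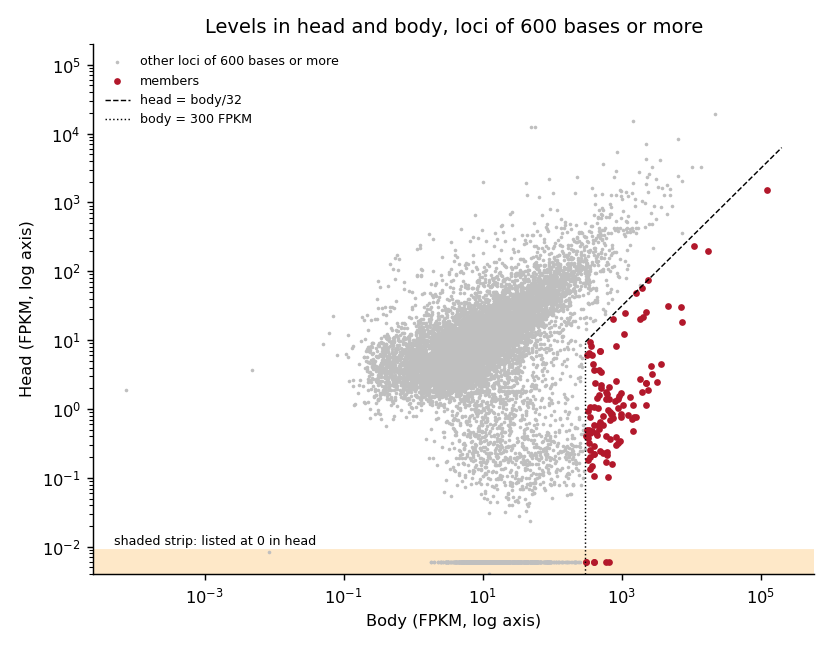
Head FPKM against body FPKM, both on log axes, for loci of 600 bases or more, with members in red and the 2 limits on level drawn as lines. Loci listed at 0 in head stand in the shaded strip, together with 7 loci under 0.009 FPKM in head, and the 389 long loci at 0 in body are not shown. Most members lie in a lower cloud around 1 FPKM in head, and a few lie close to the limit of 1/32.

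The ratios of long abundant loci had 2 high stretches, and most members stood in the upper one. Of the 367 loci above 0 in head, 124 had a body level 1 to 4 times the head level and 45 had a lower body than head level. The count fell to 13 at 16 to 32, and then stood at 11 at 32 to 64, 11 at 64 to 128 and 7 at 128 to 256. It was 14 at 256 to 512, 33 at 512 to 1024 and 21 at 1024 to 2048, and 15 loci lay above. With the 6 at 0, 89 of the 118 members were at 256 or more. The counts were thus low from 16 to 512, at 7 to 14 in each class, and the limit of 32 lay within this sparse stretch. The other 29 members, under 256, and the 14 at 256 to 512 stood in it. The rule used these same values, so the stretch is a description and does not justify the limit.

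With other limits on body level, the dip at 128 to 256 was found at 100 and 500 FPKM and was not clear at 1000. At 100 FPKM or more, 19 loci stood at 128 to 256, against 33 at 16 to 32 and 80 at 512 to 1024. At 500 FPKM or more these counts were 4, 8 and 21. At 1000 FPKM or more, with few loci in each class, 2 stood at 16 to 32, 5 at 32 to 64, 6 at 64 to 128, 2 at 128 to 256, 1 at 256 to 512 and 8 at 512 to 1024. With head and body exchanged, 10 of 176 long loci abundant in head were under 1/32 in body, or 5.68%. None of the 10 was at 0 in body, 1 had a head level 256 or more times the body level, and the highest ratio was 257.

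**Figure D2:**
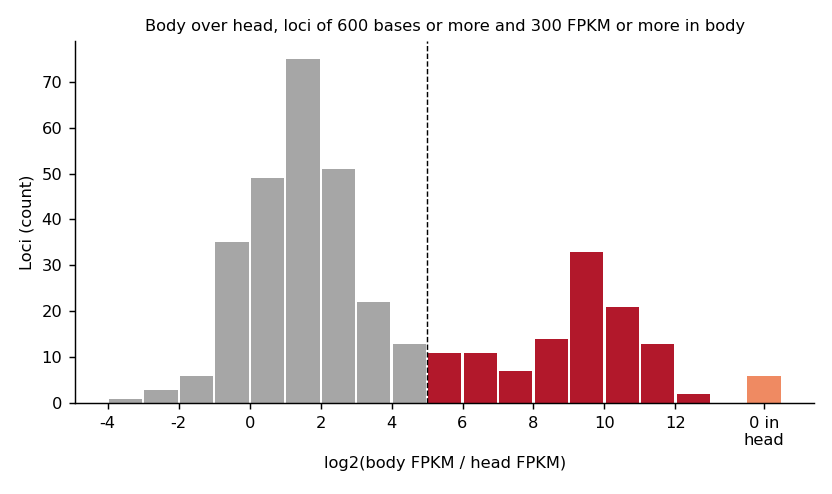
Number of long loci abundant in body, by log2 of body over head FPKM in steps of 1, with the limit of 32 as a dashed line, members in red and the 6 at 0 in head as a separate bar. The main peak lies at ratios of 2 to 4 with 75 loci, the low point at 128 to 256 with 7, and a second peak at 512 to 1024 with 33.

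The members with the highest body levels were not those with the lowest head levels. XLOC_003819, bases 1 to 628 of contig DN10932_c1_g6_i3, was the highest long locus in body, with 122861 FPKM in body and 1499 FPKM in head, a ratio of 82.0. XLOC_003813, bases 1 to 1543 of DN10932_c1_g3_i5, had 17632 FPKM in body and 198 in head, a ratio of 89.2. Another locus, XLOC_003814, covers the same bases and is listed at 52.1 FPKM in body and 0.215 in head, so the division of fragments between the 2 loci is uncertain. XLOC_006165, bases 1 to 2581 of DN11432_c2_g5_i1, had 11096 FPKM in body and 230 in head, a ratio of 48.2. These 3 held 2223 to 7247 head fragments each, by the bounds that the worth of a fragment allows, and so were measured in head far above the level of single fragments.

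XLOC_006463 and XLOC_001216 were the next in body level. XLOC_006463, bases 249 to 935 of DN11495_c3_g5_i1, had 7395 FPKM in body and 18.5 in head, a ratio of 399. XLOC_001216, bases 1 to 1065 of DN10380_c1_g1_i4, had 7068 FPKM in body and 29.9 in head, a ratio of 236. Their body levels were close to each other, and the head level of XLOC_001216 was the higher of the pair. Their ranks in body among long loci were 7 and 10.

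A head value of 0 was recorded for 6 members with moderate body levels. XLOC_001215, bases 1 to 1041 of DN10380_c1_g1_i2, had 667 FPKM in body. XLOC_007148, bases 16 to 942 of DN11630_c1_g2_i9, had 589 FPKM, and XLOC_006736, bases 2 to 741 of DN11552_c1_g2_i2, had 404 FPKM. The other 3 at 0 were at 302 to 403 FPKM in body. At their body level, the head libraries would have held 1334 to 5519 fragments of each of the 6. With a floor of 3 fragments over both head libraries, their body level was at least 445-fold to at least 1840-fold higher than in head, with a median bound of 1060. The floor covers counting error only.

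Length did not set the members apart from other abundant loci by a wide margin. Members were 601 to 3295 bases long with a median of 949.5, and the other long abundant loci had a median of 1001. The longest, XLOC_009881, at bases 4 to 3298 of DN12201_c4_g5_i6, had 1043 FPKM in body and 1.13 in head. Next were XLOC_006165, described above, and XLOC_006741, bases 1 to 2075 of DN11552_c2_g8_i1, with 2416 FPKM in body and 75.2 in head. Of the members, 33 of 118 began at the first base of their contig (28.0%), against 46 of 255 other long abundant loci (18.0%) and 496 of all 12297 long loci (4.03%). No difference between these shares was tested.

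Loci lay close to each limit on both sides. For the ratio, XLOC_006741 at 32.1 and XLOC_013395 at 32.4 were inside, and XLOC_010598 at 29.0 and XLOC_011596 at 24.1 were outside. For body level, XLOC_003486 at 302 FPKM and XLOC_007318 at 303 FPKM were inside, and XLOC_007009 at 297 FPKM and XLOC_001748 at 291 FPKM were outside, the latter with ratios of 1142 and 2291. For length, XLOC_001599 with 601 bases and XLOC_005279 with 606 bases were inside. XLOC_011302 with 599 bases, at 7160 FPKM in body and 117 in head, and XLOC_008922 with 593 bases, at 16139 FPKM in body and 16.9 in head, were outside.

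Not all members were called by the authors. In the authors' deposited table, 51 of the 118 members were called higher in body at a q under 0.05 (43.2%), where 14.6% of all tested loci were called higher in body. At a q under 0.01 it was 48 members, beside 11.6% of tested loci. The members were chosen on the same contrast, so nothing is read from these counts. The other long abundant loci, whose ratios are smaller, were called higher in body in 154 of 255 cases (60.4%) in the authors' deposited table. The 67 members not called had q of 0.0584 to 0.390 there, and the highest q of a called member was 0.0144. These p-values rest on 2 libraries per tissue, and whether the libraries came from separate sets of larvae beyond the pooling is not recorded.

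Called and not called members above 0 in head differed in their number of head fragments, with the exception named below. The cause was not tested. Among the 90 members above 0 with a resolved split, all 66 with 10 or fewer head fragments were not called in the authors' deposited table, and all 24 with 13 or more were called. None had 11 or 12. All 6 members at 0 in head were called, so calls did not simply rise with the number of fragments. Of the 66, 26 members had 1 or 2 fragments in all, 16 had 3 to 5 and 24 had 6 to 10. Body levels overlapped between these classes, with medians of 438, 620 and 613 FPKM, and with 944 FPKM in the 14 members with 13 to 20 fragments and 539 FPKM in the 10 with 21 to 36. The 22 members without a resolved split had at least 49 head fragments each, and 21 of them were called.

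Members with the same split of head fragments shared 1 p-value whatever their body level. In the authors' deposited table this held for all 13 splits that 2 or more members had, which covers 52 members. The 7 members with no fragment in A and 1 in B all had p = 0.2473 in the authors' deposited table, at body levels of 324 to 726 FPKM. The 9 members with 1 fragment in each library all had p = 0.2062 in the authors' deposited table, at 326 to 935 FPKM. The 5 members with no fragment in A and 6 in B all had p = 0.0635 in the authors' deposited table, at 356 to 1934 FPKM, a 5.44-fold range of body level. Among members above 0 in head, XLOC_001216 was the exception to the division by fragments. It was not called (p = 0.03195, q = 0.109 in the authors' deposited table) with at least 217 and at most 293 head fragments.

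**Figure D3:**
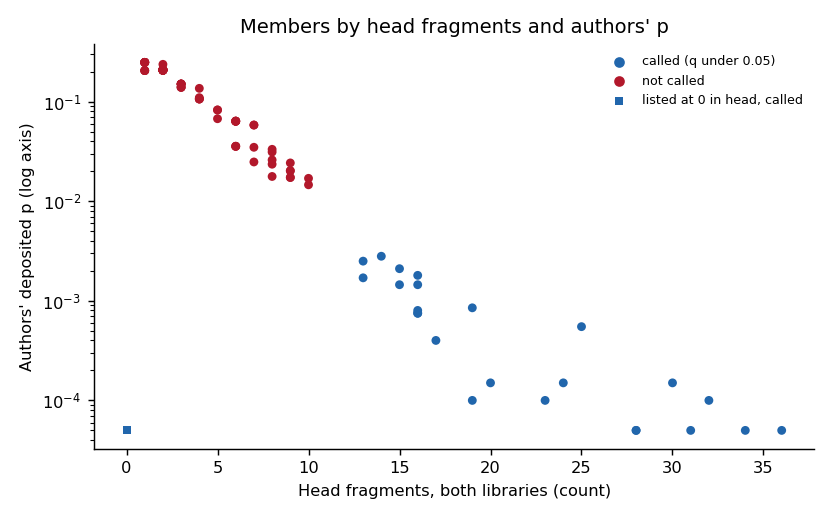
The authors' deposited p-value on a log axis against the number of head fragments of members with a resolved split, with called and not called members in different colours. The 66 members with 1 to 10 fragments lie above the called ones, the 24 with 13 or more lie below, and the 6 with none lie at the lowest p of the table, 5e-05.

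The 90 members above 0 with a resolved split, which are those with the fewest head fragments, together had most of their fragments in library B, the shallower one. They hold a small share of all head fragments of the members, since the 22 without a resolved split have at least 16114 together, whose place is unknown. The split between libraries was not used by the rule, which takes the head value as a whole. Of the 90, 12 had a higher level in A (13.3%, exact 95% interval 7.08 to 22.1%) and 78 had a higher level in B. A fragment counts for more in the shallower B, so members with as many fragments in each library count as higher in B. This was so for the 9 members with 1 fragment in each. At so few fragments, equal levels need not put as many loci on each side. No fragment in A was found for 30 members, which had up to 7 in B, and no fragment in B for 4 members, which had up to 2 in A. Together the 90 held 316 fragments in A and 482 in B, so 39.6% were in A (exact 95% interval 36.2 to 43.1%), where equal levels give 57.5%. Intervals treat fragments or loci as independent and cover counting error only.

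Among these resolved members, those with 10 or fewer fragments leaned more to B than those with more than 20. With 10 or fewer, 5 of 66 members were higher in A, and 66 of 282 fragments were in A (23.4%, exact 95% interval 18.6 to 28.8%). With more than 10 fragments, 7 of 24 members were higher in A, and with more than 20 it was 6 of 10. Loci that were not members, with 10 or fewer fragments, were higher in A in 40.1% of 931 cases and had 49.4% of their fragments in A. Whatever their number of fragments, 46.0% of 4352 resolved loci that were not members were higher in A, and 55.2% of their fragments were in A.

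As a percentage of the body level, the level of the 90 members had a median of 0.0329% in A, with quartiles of 0 and 0.0882% and a highest value of 3.12%. In B the median was 0.158%, with quartiles of 0.0955% and 0.288% and a highest value of 1.49%. The summed level of these members was 1.85 times as high in B as in A. Across the 90 members, Spearman's rho between body level and the level in B was 0.41, and that for A was 0.29. These are descriptions, since the rule caps the head level by the body level and the members share the same libraries.

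**Figure D4:**
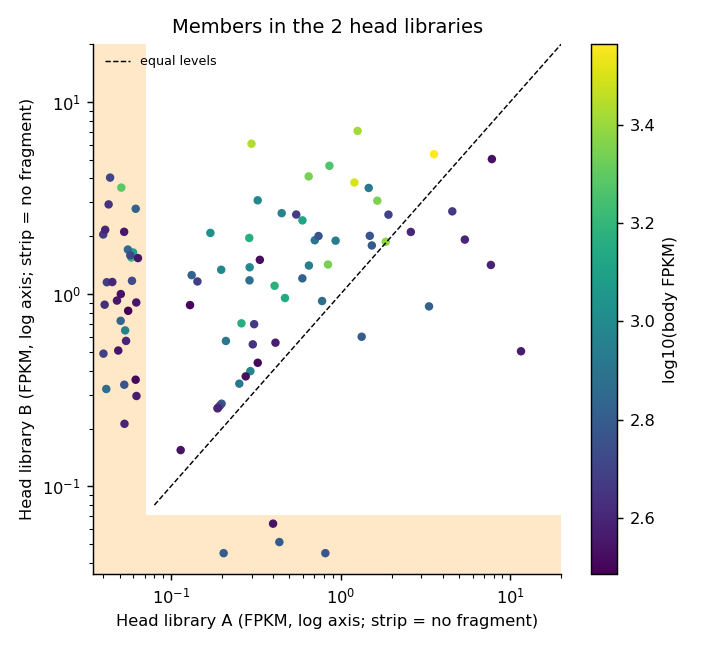
Level in head library B against head library A for the resolved members, in FPKM on log axes with a dashed line of equal levels and colour for log10 of body FPKM. Members with no fragment in a library are spread within the shaded strip of that library. Of the 90 members, 78 lie on the side of library B and 12 on the side of library A.

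The split went with body level among long loci with 10 or fewer head fragments. With a body level under 3 FPKM, 49.3% of fragments were in A, over 142 loci. The share was 54.0% at 3 to 10 FPKM, 50.1% at 10 to 30, 46.9% at 30 to 100 and 38.3% at 100 to 300, over 116 to 228 loci each. It was 23.1% at 300 to 1000 FPKM, over 56 loci, and 24.6% at 1000 FPKM or more, over 10 loci. Together these classes are the 66 members with 10 or fewer fragments described above, so they add no separate observation. In the last class 0 of the 10 were higher in A. Among loci also under 1/32 in head, the share in A was 52.3% at a body level of 10 to 30 FPKM, 46.8% at 30 to 100 and 38.3% at 100 to 300. With all resolved loci under 1/32, whatever their number of fragments, these shares of fragments were 54.1%, 50.9% and 58.0% and did not decline. The percentage of those loci that were higher in A was 45.2%, 36.3% and 33.3%. The share at equal levels, 57.5%, already allows for the relative depth of the 2 libraries. Depth as a number of reads, dissection and the order of handling are not in the table, and their part in the split was not tested.

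**Figure D5:**
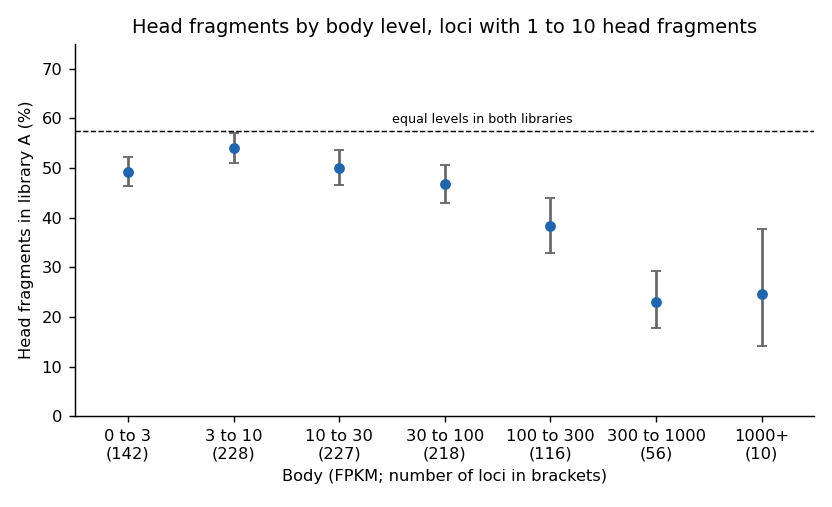
Percentage of head fragments in library A, with exact 95% intervals, by body FPKM, for long loci with 10 or fewer head fragments, with the share at equal levels as a line. The 2 highest classes, which start at 300 FPKM and hold only members, lie at 23.1% and 24.6%, under the line at 57.5%.

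Single members departed from the common split in both directions. The following 6 were chosen after their values were seen. XLOC_015639 (bases 13 to 686 of DN31542_c0_g1_i1) had 31 fragments in A and 1 in B, with 371 FPKM in body. XLOC_018237 had 22 in A and 3 in B, and XLOC_012931 had 26 in A and 5 in B. XLOC_018465 (bases 1 to 792 of DN8676_c0_g1_i1) had 1 in A and 15 in B, with 2771 FPKM in body. XLOC_008070 had 7 in A and 29 in B, and the longest member, XLOC_009881, had 3 in A and 27 in B.

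Splits far from the share at equal levels were counted over all resolved loci. With 13 or more fragments, the exact 95% interval of the share in A lay under 57.5% for 9 of 24 members (37.5%) and above it for 4 (16.7%). For 2363 loci with as many fragments that were not members, these shares were 17.0% and 7.36%. With 5 to 12 fragments it lay under for 10 of 27 members and above for 0, beside 17.6% and 5.88% of 544 other loci. The 12 members higher in A had body levels of 338 to 664 FPKM and a median ratio of 245, and the 78 higher in B had a median body level of 608 FPKM and a median ratio of 918. All 18 resolved members at 1000 FPKM or more in body were higher in B.

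Most members were the sole member of their Trinity gene. The 118 members lay on 118 contigs of 110 Trinity genes, and 7 of these genes held 15 members. Of the members, 69 were the only locus of their gene (58.5%), against 168 of 255 other long abundant loci (65.9%).

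DN11672_c0_g1 had the most loci, 11, of which 3 were members. XLOC_007322 had 1492 FPKM in body and 0.757 in head, with 1 fragment in A and 2 in B. XLOC_007327 had 1220 FPKM in body and 0.823 in head, with 0 fragments in A and 3 in B. XLOC_007318 had 303 FPKM in body and was listed at 0 in head. All 8 of its other loci, 189 to 439 bases long, were over 32-fold higher in body or at 0 in head, at 445 to 2405 FPKM in body. This gene had 11 of 11 loci on the same side, and the only called ones were the 3 at 0 in head.

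The other 6 genes with more than 1 member had 2 each, and DN10380_c1_g1 and DN10338_c2_g1 had the highest summed body FPKM of them. In DN10380_c1_g1, XLOC_001216 had 7068 FPKM in body and 29.9 in head, while XLOC_001215, 24 bases shorter, had 667 FPKM in body and was at 0 in head. The remaining locus of this gene, XLOC_001214 with 271 bases, had 28.8 FPKM in body and was at 0 in head. In DN10338_c2_g1, XLOC_001058 had 1857 FPKM in body and 2.76 in head, with 4 fragments in A and 16 in B, and was called in the authors' deposited table. XLOC_001057 had 1460 FPKM in body and 0.483 in head, with 1 fragment in A and 2 in B, and was not called there. Variants of 1 Trinity gene share sequence, so fragments may have been divided between them, and their values are uncertain to that degree.

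The other loci of the members' Trinity genes, which the rule did not take, were also mostly higher in body. There were 83 in 38 genes, and 52 of them were under 600 bases. Of these, 76 were higher in body (91.6%, exact 95% interval 83.4 to 96.5%), 59 were over 32-fold higher or at 0 in head (71.1%), and 30 were at 0 in head. Of the 83, 39 were called higher in body in the authors' deposited table (47.0%), and these include all 30 at 0 in head. Among 113 other loci in the Trinity genes of the other long abundant loci, 61.9% were higher in body, 8.85% were over 32-fold higher and 30.1% were called. Over all loci, 48.4% were higher in body and 11.9% over 32-fold higher. Loci of a gene share sequence and libraries, so they are not independent measurements of it.

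The other 7 were higher in head. Of these, 4 were at 10 FPKM or more in head, and 1 was called in the authors' deposited table. It is XLOC_005442, bases 35 to 2529 of DN11275_c1_g2_i1, with 15.7 FPKM in head and 3.05 in body (q = 0.00209 in the authors' deposited table). In DN10724_c1_g1 and DN12823_c5_g1, 5 other loci each were present, 4 of 5 were higher in body and none was over 32-fold higher. In DN12002_c2_g1, which has 2 members among 8 loci, XLOC_008920, which is not a member, had 44169 FPKM in body and 54.2 FPKM in head. It is 254 bases long, little above the offset of 201 bases taken off the length in head values. Its FPKM is therefore not comparable with that of the long members.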

How the data were processed

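Per the labels' protocols, total RNA was taken with Trizol and 1 ug was made into libraries with the Illumina TruSeq kit, version 2. TopHat and Cufflinks are named in the submitters' processing notes. Their versions and settings, and any scaling of head to body, are not given in the sources. The authors deposited 1 table, which per the file headers holds for each locus 1 FPKM in head, 1 FPKM in body, a p-value and a q-value. The authors' p-values and q-values were used as deposited, for 19061 tested loci, and no test was added because no value per library is given. Locus starts are counted from 1. Depth as a number of reads is unknown.

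Members and lists were chosen with earlier results of these data known. The rule for named members takes the 5 highest in body, the 3 highest of those at 0 in head, the 3 longest, the 3 highest in head, members of the 3 Trinity genes with most members (ties broken by the members' summed body FPKM), and 2 loci on each side of each limit. Outside the rule, XLOC_015639, XLOC_018237, XLOC_012931, XLOC_018465, XLOC_008070, XLOC_005442, XLOC_003814 and XLOC_008920 were named after their values were seen. Gene lists could not be applied, since no locus has a name.

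Head fragments were recovered by a method chosen after the data were seen. A head value was written as the mean of whole fragments from 2 libraries, each fragment worth a fixed step divided by the length less a fixed offset. The offset was 201 bases in both head libraries, so a fragment counts for far more FPKM in loci near that length. A value counted as resolved if 1 split was within 0.002% and under 0.1 accidental splits were expected. On simulated head values, 4446 of 4446 resolved loci were right, which checks the arithmetic. Among long loci with head values low enough for the method, 4442 of 4569 (97.2%) had 1 whole split, the others did not, and for members it was 90 of 90. Bounds use a floor of 3 fragments, and intervals are exact (Clopper-Pearson, 95%). Scripts ran in Python 3.11.15 with pandas 2.3.3 and numpy 2.4.6, intervals came from scipy 1.17.1, and plots from matplotlib 3.10.9.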

Additional observations from a re-analysis of the deposited data

How the results depend on the processing

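Of 38 alternatives, 22 left the value within the limits set and 16 moved it. The limits were wide for the number of members, where 173 in place of 118 counted as within them. They were narrow for the median log2 difference, where 8.05 in place of 8.25 counted as moved. The 22 are therefore not all close to the main value. The number of members, 118, was 71 with a body minimum of 500 FPKM and 53 with a length minimum of 1000 bases, and it was 107 to 173 under the other 7 settings. The median log2 difference, 8.25, was 9.37 and 6.43 when 0.1 and 5 were added in place of 1. It was 8.05 once the tissues' upper quartiles were made equal, 7.83 with a body minimum of 200 FPKM and 8.75 with 500. The share of the body sum, 4.37%, was 31.6% over loci of 600 bases or more. The median bound for members at 0, 1060, was 3181 with a floor of 1 fragment and 636 with 5. Of the other loci in the members' Trinity genes, 91.6% in all were higher in body, and 98.5% at 10 FPKM or more in body, a limit that by construction leaves out loci low in body. The number of called members, 51, was 40 to 64 under the 5 alternatives. The share of resolved members' fragments in library A, 39.6%, was 47.5% with a tolerance of 0.001%, 32.3% with 0.01%, 28.8% with 0.01 accidental splits allowed, 23.4% with 10 or fewer fragments and 33.0% with a body minimum of 500 FPKM, and each was under the 57.5% of equal levels. These alternatives for the split were chosen after seeing the data. Fewer loci or fragments enter by construction where a limit is stricter, except for the tolerance. A stricter tolerance leaves fewer accidental splits expected, so members with more head fragments can be resolved. At 0.001%, 94 members above 0 were resolved, and at 0.01% it was 82, against 90 in the main run. The share in A thus depends on which members count as resolved. No paired analysis was possible because body has 1 value per locus and the levels recovered for some loci in the head libraries could not be matched to replicate numbers, so leaving out replicates and the replicate block were not run. With 1 to 10 head fragments in 66 members, single head levels and ratios are imprecise.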
